A study of Eohaustorius estuarius with 16 samples.

Results

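In whole bodies of the burrowing amphipod Eohaustorius estuarius, 41 contigs had a lower signal on every one of 8 arrays from animals kept on cyfluthrin-spiked sediment than on any of 8 control arrays. A contig is a sequence assembled from the transcriptome of the animal, and each of the 8507 contigs on the array is represented by 1 probe. Candidates were the contigs above background on all 8 control arrays, which held for 5849, and a full comparison needs a value on all 16 arrays, which left 5765. A contig was taken when its highest value among cyfluthrin arrays lay below its lowest value among control arrays. The contigs were thus chosen by their cyfluthrin and control signals on these same 16 arrays, and those signals are given below as a description, with no p-value. Full separation downward was found in 41 of 5765 contigs, or 0.711%, and nothing is read from that share, since it is the rule itself.

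The cyfluthrin group spent 10 days on sediment dosed to a nominal 1.6 µg of cyfluthrin per kg, and the control group the same 10 days on sediment that received solvent only. Each group has 8 single-colour arrays of whole-body total RNA, all processed in 1 laboratory (laboratory A) of a comparison between laboratories. The labels name no age, sex or number of animals in a sample, and leave out whether exposures were run separately, so spreads measure these samples only. RNA of a whole body mixes all tissues, so fewer cells of a type and less RNA per cell cannot be told apart.

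Cyfluthrin is a pyrethroid insecticide. Pyrethroids hold voltage-gated sodium channels of nerve and muscle open, which gives repetitive firing and, in crustaceans, loss of coordinated swimming and burrowing. Crustaceans and other aquatic arthropods are sensitive to them, and because the compounds bind to sediment, sediment-dwelling amphipods such as Eohaustorius estuarius are used to test them. The deposited files give no gene name, protein or sequence for a contig, so no function is assigned to any of the 41, and they are ordered here by the size of the difference. All identifiers begin with eohaus_trim.v2-, which is left out below after the first use.

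Arrays lay on 2 slides, each with 4 cyfluthrin and 4 control arrays, and on both slides the cyfluthrin arrays filled row 2 and the control arrays row 1. Treatment and position by row cannot be told apart. Before scaling, the 75th percentile of the processed signal was 274 to 950 units on cyfluthrin arrays and 301 to 623 units on control arrays. Cyfluthrin replicate 7 had both the highest percentile and the brightest negative control spots (median 73.5 units). Cyfluthrin replicates 2 and 8, at 51 and 49 units, were also above every control array (37.5 to 43 units). The other cyfluthrin arrays, at 39 to 42 units, were within the control range. Signals were scaled to a common 75th percentile of 455 units, with a floor of 5 units, and are given as log2, so a difference of 1 is a 2-fold difference.

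By the scanner software's own call, all 41 contigs were above background on all 16 arrays, so each value is a measured signal and not a bound. Averaged over the 41, the log2 signal of single arrays lay between 8.96 and 9.27 with a median of 9.06 in cyfluthrin arrays, against 10.00 to 10.25 with a median of 10.19 in control arrays. The means were 9.09 ± 0.12 in cyfluthrin arrays and 10.16 ± 0.096 in control arrays (SD, n = 8 each). No array stood apart from its group on this average, cyfluthrin replicate 7 included. The rule favours contigs with little spread within a group, so this average cannot show whether an array was atypical. Single contigs differed by −2.62 to −0.33 log2 units (cyfluthrin minus control), that is by 6.14-fold to 1.25-fold, with a median of −0.81. Over all 5765 candidates the median difference was 0.020.

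The sizes were uneven. In 6 contigs the signal was at least 4-fold lower in cyfluthrin arrays, in 10 it was 2-fold to 4-fold lower, in 16 it was 1.5-fold to 2-fold lower, and in 9 the difference was under 1.5-fold. Ranked by size, the ninth contig had a difference of −1.74 and the next one of −1.27, a step of 0.47. These sizes depended on background correction and scaling. The normexp setting, a model-based background correction, also added an offset of 50 units to each signal. An added offset shrinks log2 differences, most in dim probes, and its share of the change was not tested. With normexp followed by 75th-percentile scaling, 2 of the 41 were at least 4-fold lower, contig_2561 (−2.32) and contig_2087. Under the same setting contig_2088 was at −1.57 and contig_6339 at −1.40, a fold more than 1.5 times smaller. With arrays scaled on their median, 8 of the 41 were at least 4-fold lower.

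**Figure D1:**
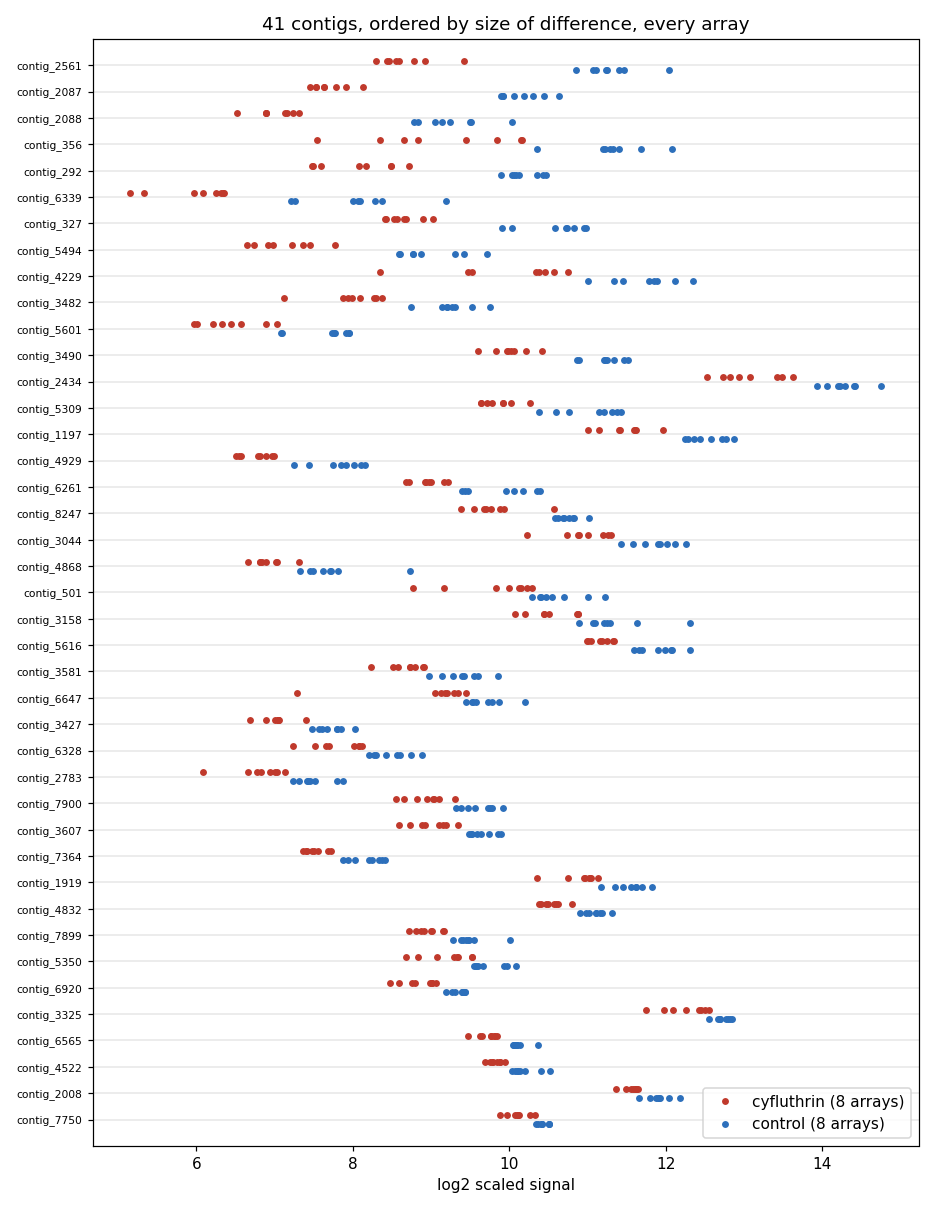
Log2 scaled signal (horizontal axis) of the 41 contigs, 1 row per contig in order of the mean difference, with 8 cyfluthrin arrays (red, upper points) and 8 control arrays (blue, lower points). The groups are far apart in the top rows, such as contig_2561 at 8.30 to 9.41 in cyfluthrin arrays and 10.85 to 12.04 in control arrays, and nearly touch in the lowest rows.

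The largest difference was in eohaus_trim.v2-contig_2561. Its log2 signal was 8.30 to 9.41 in cyfluthrin arrays (median 8.57), against 10.85 to 12.04 in control arrays (median 11.24). The highest cyfluthrin array, replicate 5, was still 1.44 log2 units below the lowest control array, replicate 6. The means were 8.68 ± 0.36 in cyfluthrin and 11.30 ± 0.35 in control arrays (SD, n = 8 each), a difference of −2.62 (SE 0.18), so the signal under cyfluthrin was 16.3% of that in controls.

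Contig_2087 had a log2 signal of 7.45 to 8.13 in cyfluthrin arrays (median 7.63) and of 9.89 to 10.64 in control arrays (median 10.12). The gap of 1.76 between the groups was the widest of the 41, and wider than the range within either group. The means of contig_2087 differed by −2.47 (SE 0.13), or 5.54-fold. Its neighbour in contig number, contig_2088, lay at 6.53 to 7.31 in cyfluthrin arrays (median 7.01) and at 8.78 to 10.03 in control arrays (median 9.19). Contig_2088 thus differed by −2.26 (SE 0.17), or 4.78-fold, with a gap of 1.47.

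Contig numbers that follow each other did not all share this pattern. Contig_2086 had a mean log2 signal of 12.49 ± 0.22 in cyfluthrin arrays and 12.54 ± 0.25 in control arrays (SD, n = 8 each), and contig_2089 of 10.01 ± 0.29 in cyfluthrin and 10.09 ± 0.58 in control arrays. The differences of both, −0.048 and −0.080, were smaller than the SD within either group. The sources used here do not say what adjacent contig numbers share.

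Contig_292 was measured by 1 spot per array. Its log2 signal was 7.48 to 8.72 in cyfluthrin arrays (median 8.13) and 9.89 to 10.47 in control arrays (median 10.10), a difference of −2.12 (SE 0.19) or 4.33-fold. The SD was 0.49 among cyfluthrin arrays and 0.21 among control arrays. Contig_6339 lay at 5.16 to 6.35 in cyfluthrin arrays (median 6.17) and at 7.21 to 9.19 in control arrays (median 8.08). Its means differed by −2.08 (SE 0.28), or 4.24-fold, with an SD of 0.47 in cyfluthrin arrays and a wider 0.63 in control arrays.

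A further contig in this range, contig_356, differed as strongly but far less evenly among exposed samples. Its log2 signal ran from 7.54 to 10.16 in cyfluthrin arrays (median 9.14), against 10.35 to 12.07 in control arrays (median 11.30). Cyfluthrin replicates 1 and 5, at 10.16 and 10.15, were the closest to the lowest control array, whereas cyfluthrin replicate 2 was the lowest at 7.54. The lowest control array, at 10.35, was also replicate 2, on the same slide and in the same column. The difference of −2.19 had an unpaired SE of 0.37, the largest of the 41, and the gap was 0.19.

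**Figure D2:**
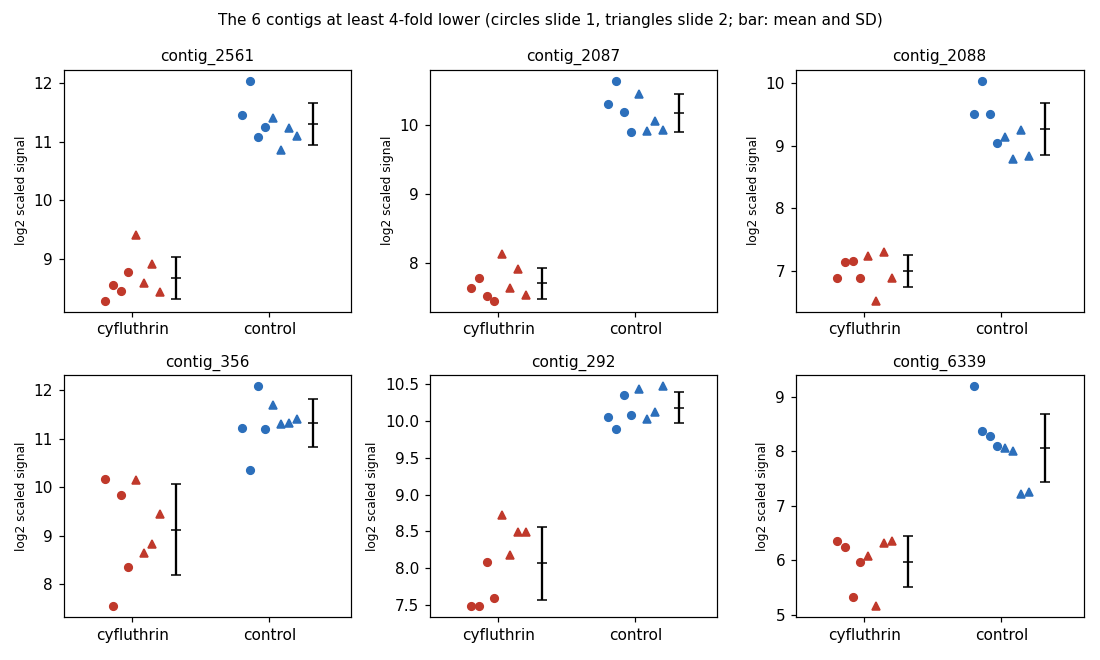
Log2 scaled signal of the 6 contigs with a difference of at least 4-fold, cyfluthrin arrays left (red) and control arrays right (blue), circles for slide 1 and triangles for slide 2, with the mean and SD of 8 arrays. Contig_2087 has the widest gap, 1.76, and contig_356 the widest spread among cyfluthrin arrays, an SD of 0.94.

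Between 2-fold and 4-fold, contig_327 was at 8.42 to 9.02 in cyfluthrin arrays (median 8.61) and at 9.90 to 10.98 in control arrays (median 10.73), a difference of −1.94 (SE 0.16). Contig_5494 was at 6.65 to 7.77 in cyfluthrin arrays (median 7.11) and at 8.59 to 9.72 in control arrays (median 8.82), a difference of −1.87 (SE 0.20). The gaps of these contigs were 0.88 and 0.82. Contig_4229 resembled contig_356, with a wide range of 8.35 to 10.75 in cyfluthrin arrays (median 10.35), against 11.01 to 12.34 in control arrays (median 11.81). Again replicate 2 was the lowest array of contig_4229 in both groups. Its difference was −1.74 (SE 0.32).

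The other 7 contigs between 2-fold and 4-fold had differences of −1.27 to −1.05. Contig_3482 lay at 7.12 to 8.38 in cyfluthrin arrays (median 8.05) and at 8.74 to 9.75 in control arrays (median 9.24), a difference of −1.27 (SE 0.17). Contig_3490 was at 9.59 to 10.42 in cyfluthrin arrays (median 10.01) and at 10.86 to 11.51 in control arrays (median 11.23), which gives −1.21 (SE 0.12). These 2 contigs had the widest gaps of the 7, at 0.36 and 0.44.

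The 3 probes with the highest control signal were those of contig_2434, contig_3325 and contig_1197. Contig_2434 was at 12.53 to 13.62 in cyfluthrin arrays (median 13.01) and 13.93 to 14.75 in control arrays (median 14.26), a difference of −1.21 (SE 0.17). Contig_1197 was at 11.01 to 11.96 in cyfluthrin arrays (median 11.50) and 12.25 to 12.87 in control arrays (median 12.50), a difference of −1.06 (SE 0.13). Contig_3325 was at 11.74 to 12.55 in cyfluthrin arrays (median 12.34) and at 12.56 to 12.85 in control arrays (median 12.73). It differed by only −0.48 (SE 0.11), and the groups lay 0.011 apart.

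At the dim end, contig_2783 was at 6.09 to 7.13 in cyfluthrin arrays (median 6.88) and at 7.24 to 7.87 in control arrays (median 7.44). Contig_5601 was at 5.97 to 7.03 in cyfluthrin arrays (median 6.38) and at 7.08 to 7.95 in control arrays (median 7.76), a difference of −1.22 (SE 0.19). Contig_3427 was at 6.68 to 7.41 in cyfluthrin arrays (median 7.04) and at 7.47 to 8.03 in control arrays (median 7.73), a difference of −0.70 (SE 0.095). Signal also depends on how well each probe binds, so these values order the probes and not the amounts of RNA.

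The 3 smallest differences belonged to contigs with little spread. Contig_7750 had means of 10.11 ± 0.14 in cyfluthrin arrays and 10.43 ± 0.065 in control arrays (SD, n = 8 each), a difference of −0.33 (SE 0.055). Contig_2008 had 11.56 ± 0.094 in cyfluthrin and 11.91 ± 0.16 in control arrays, a difference of −0.35 (SE 0.064). For contig_4522 the means were 9.82 ± 0.084 in cyfluthrin arrays and 10.20 ± 0.17 in control arrays, a difference of −0.38 (SE 0.069). Over the 41, the median SD was 0.25 in cyfluthrin and 0.25 in control arrays, against 0.38 and 0.34 over the candidates, as choosing contigs without overlap favours.

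The edge of the rule was narrow. The gap between the groups was under 0.1 log2 units in 16 of the 41 contigs, over 0.5 in 7 and over 1 in 4. It exceeded the larger of the SDs of the 2 groups in 9 contigs. The narrowest gaps were 0.0038 in contig_501, 0.0060 in contig_2008 and 0.0082 in contig_6647. Just outside the rule, the gap was −0.0090 in contig_7326, a slight overlap, since its highest cyfluthrin value was 8.25 and its lowest control value 8.24. In contig_5678 and contig_8339 the gaps were −0.011 and −0.012.

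Contigs that were kept out were not always smaller in difference. Among the candidates, 18 had a mean signal at least 2-fold lower in cyfluthrin arrays with groups that overlapped. In contig_5682, picked after its values were seen because its mean difference of −2.64 exceeded all of the 41, signals ran from 2.56 to 9.87 in cyfluthrin arrays and from 7.32 to 10.91 in control arrays, and 6 of the 8 cyfluthrin arrays were above background. A further 4 contigs (contig_3407, contig_3881, contig_1946 and contig_2392) were separated downward over the arrays that gave a value but lacked 1 or more arrays, all their spots there being flagged as outliers. The largest difference of these 4 was −1.79 in contig_3407, with 7 cyfluthrin arrays at 6.87 to 9.01 and 8 control arrays at 9.48 to 10.84.

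Separation depended on the normalization. Under each of 6 other ways to obtain the values, all 41 contigs had a lower mean in cyfluthrin arrays, but the number fully separated was 19 to 44, and 17 to 29 of these were among the 41. In 12 of the 41 the groups stayed apart under all 6. These were contig_2561, contig_2087, contig_2088, contig_292, contig_6339, contig_327, contig_5494, contig_3482, contig_3490, contig_6261, contig_3581 and contig_6328, with a median gap of 0.84. In 6 contigs (contig_5601, contig_8247, contig_501, contig_6647, contig_3325 and contig_2008) the groups overlapped under all 6, and their gaps were 0.0038 to 0.052. Contig_5601 was among these 6 although its mean difference was −1.22.

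**Figure D3:**
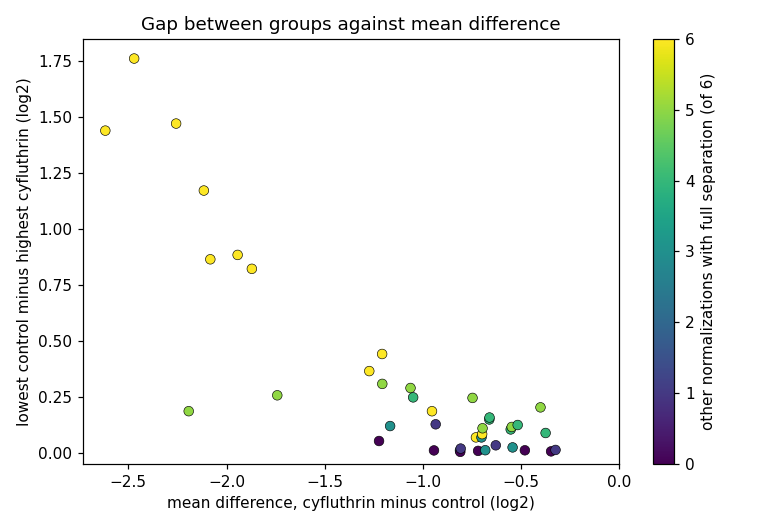
Gap between the highest cyfluthrin and lowest control value (positive where they do not overlap) against the mean difference, cyfluthrin minus control, both in log2 units, for the 41 contigs, coloured by the number of 6 other normalizations under which the groups did not overlap. The 12 contigs separated under all 6 include the 7 with a gap over 0.5, while contig_356 and contig_4229 have differences of −2.19 and −1.74 with gaps of 0.19 and 0.26.

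The rule used the mean of a contig's spots on each array, so its single spots are parts of the selecting value and are given as a description. Of the 41 contigs, 28 had 2 spots on each array and 13 had 1. Those 13 were contig_292, contig_4229, contig_3482, contig_5601, contig_501, contig_6647, contig_6328, contig_7900, contig_7364, contig_4832, contig_7899, contig_5350 and contig_6565. The SD between duplicate spots of a contig had a median of 0.12 log2 units over the 28, against 0.14 over 4284 candidates with 2 spots, and the highest was 0.32 in contig_4929. The differences between groups obtained from the 2 spots separately were apart by a median of 0.067 and at most 0.36. In contig_2561 they were −2.68 and −2.56, and in contig_2087 −2.38 and −2.56. Read 1 spot at a time, the groups did not overlap with either spot in 16 contigs, did not overlap with 1 of the spots in 9, and overlapped with both in 3. Those 3, separated only by the mean of their spots, were contig_4868, contig_3607 and contig_4522.

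The 41 contigs were lower on both slides. Within slide 1, with 4 arrays per group, the differences were −2.93 to −0.25 with a median of −0.84, and within slide 2 they were −2.31 to −0.30 with a median of −0.82. The difference was larger on slide 1 in 26 contigs and on slide 2 in 15. Contig_6339 had the largest gap between the slides, with −2.51 on slide 1 and −1.66 on slide 2, and contig_2561 had −2.93 and −2.31. Groups that do not overlap over all 16 arrays cannot overlap within a slide, so a lower signal on both slides follows from the rule.

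Whether the difference itself varied between slides was tested with a slide by treatment term fitted over all contigs. None of the 41 passed (limma, lowest adjusted p among them 0.996), 2 had an unadjusted p under 0.05 (contig_292 and contig_327), and over all 7548 contigs tested 0% passed and 241 had an unadjusted p under 0.05. For contig_292 the term was 0.64 log2 units (95% interval 0.11 to 1.17). The median half-width of these unadjusted intervals over the 41 was 0.57 log2 units. That is not a detection limit, since larger terms did not pass either, such as 0.85 in contig_6339 (95% interval −0.16 to 1.86). The count of 0 therefore does not show that the difference was alike on both slides. Full separation also favours contigs that respond alike on both slides.

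**Figure D4:**
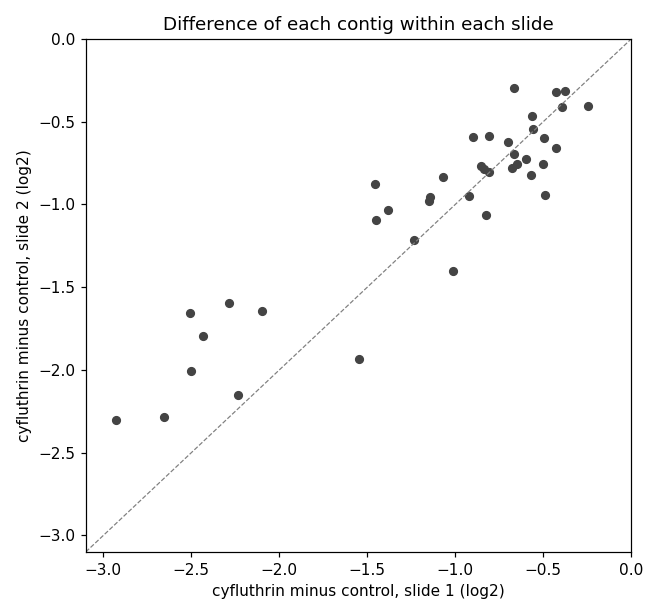
Difference between cyfluthrin and control arrays (log2, 4 arrays per group) within slide 1 (horizontal) and slide 2 (vertical) for each of the 41 contigs, with the line of equal differences dashed. All points lie below 0 on both axes, from −2.93 to −0.25 on slide 1 and from −2.31 to −0.30 on slide 2.

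The slides themselves were compared in the same arrays with treatment as a second term, a contrast that the rule did not use directly. At an adjusted p under 0.05 (limma), 2 of the 41 differed between slides, against 26.8% of the 7551 contigs tested. Both were higher on slide 2, the direction of 17.6% of all contigs tested, and 0 of the 41 were lower there, against 9.18%. At an unadjusted p under 0.05, 8 of the 41 differed, against 40.6% of all. Full separation requires little spread within a group, slide differences included, so this low count follows in part from the rule. Contig_292 was higher on slide 2 by 0.49 log2 units (SE 0.15, limma adjusted p = 0.0226) and contig_3158 by 0.46 (SE 0.15, limma adjusted p = 0.0405). Contig_501, whose slide difference was of similar size at 0.48 (SE 0.19), did not pass (limma adjusted p = 0.0708). Count and direction depended on the scaling: with arrays scaled on their median, 20 of the 41 differed, all of them lower on slide 2, while 39.2% of all contigs differed and 27.2% were lower there. When 1 array was left out, 21.6% to 31.2% of all contigs tested differed. The count among the 41 was then 5 without cyfluthrin replicate 1 (23.7% of all) and 4 without cyfluthrin replicate 4 (22.6% of all). It was 1 without cyfluthrin replicate 2, 6 or 8 or control replicate 2, 3, 4 or 5.

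Within groups, correlations among the 41 contigs were mostly low. After group means were removed, the median correlation between 2 contigs over the 16 arrays was 0.12 over 820 pairs, with −0.43 and 0.59 at the 5th and 95th percentiles. Over pairs of all candidates the median was 0.036 and the same percentiles were −0.56 and 0.64. All pairs share the same 16 arrays and their scaling, and the values are a description. The share of pairs above 0.8 was 0.366% among the 41 and 1.01% among all candidates.

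A few pairs were close. Contig_327 and contig_5309 had the highest correlation, 0.89, and 0.85 with slide means removed as well. Contig_5309 was at 9.63 to 10.26 in cyfluthrin arrays (median 9.85) and at 10.38 to 11.43 in control arrays (median 11.18), a difference of −1.17 (SE 0.16). Contig_2087 correlated with contig_2561 at 0.81 and with contig_5494 at 0.80, and with its numeric neighbour contig_2088 at 0.73. Among cyfluthrin arrays, replicate 5 was the highest for contig_2561, contig_2087 and contig_5494, and replicate 7 for contig_2088.

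Contig_356 and contig_4229, both uneven among exposed samples, correlated at 0.76 with each other. The next highest correlations of contig_356 were 0.67 with contig_501 and 0.66 with contig_7750, which had the smallest difference of the 41. Contig_6647, measured by 1 spot per array, had an SD of 0.70 among exposed samples, which rested on 1 array. Its cyfluthrin replicate 8 was at 7.29 and the other cyfluthrin arrays at 9.04 to 9.44. Contig_6647 correlated at −0.13 with contig_356 and at −0.18 with contig_4229. With contig_2087 and contig_2561, contig_4229 had correlations of −0.39 and −0.25. The lowest correlation among the 41 was −0.70, between contig_8247 and contig_3325.

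**Figure D5:**
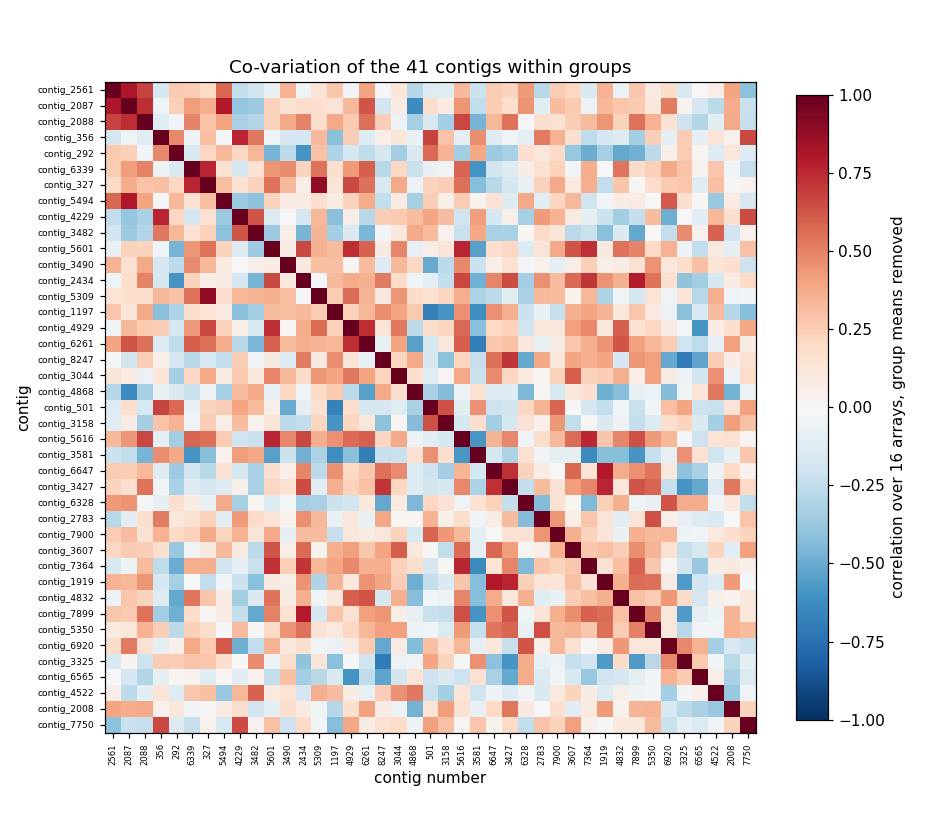
Correlation over 16 arrays, after group means were removed, between all pairs of the 41 contigs, both axes in order of the mean difference (red positive, blue negative). Contig_2561, contig_2087 and contig_2088 form a red block in the top left corner with correlations of 0.68 to 0.81, while most other pairs are pale, with a median of 0.12.

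Probe numbers of some contigs with large differences lay close together. Of the 7 contigs with the largest differences, 6 were designed in 1 of the 3 probe lists of the array, with numbers from 4070 to 4138: contig_356, contig_6339, contig_2087, contig_2088, contig_2561 and contig_327. The limits of this stretch and the cut at 7 contigs were set after the values were seen, so the count is a description. Contig_4229, the ninth by size, was in the same list but outside the stretch. Contig_292 and contig_5494 were in another list. The stretch held 35 probes, 25 of them candidates, and the 19 candidates outside the 41 had differences from −0.88 to 3.92 with a median of −0.048. Of these 19, 0 were at least 2-fold lower and 2 were at least 2-fold higher, contig_4735 (3.47) and contig_4879 (3.92). In the 69 numbers before it 0 of 28 candidates were fully separated downward, and in the 69 numbers after it 0 of 23. Over the whole list 19 of 2581 candidates (0.736%) were among the 41, so counts of 0 in so few candidates set no contrast. The stretch was not sharply bounded, since contig_807, among the 69 numbers before it, had means of 9.48 ± 1.01 in cyfluthrin arrays and 11.53 ± 0.55 in control arrays (SD, n = 8 each). Its difference was −2.05 and its gap −0.033, so the groups barely overlapped. Contig_1292, from the same 69 numbers, was also over 2-fold lower, at −1.07, with a gap of −0.85. The sources used here do not say how the probe list is ordered. By probe list, 19 of 2581, 9 of 1572 and 13 of 1612 candidates were among the 41.

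The edges of the groups were set by many arrays. Each of the 8 cyfluthrin arrays was the highest of its group, and so set the edge, in 2 to 9 contigs, most often replicate 3 (9 contigs). Each of the 8 control arrays was the lowest of its group in 2 to 8 contigs, most often replicate 8. With any 1 array left out, between 42 and 53 contigs were fully separated, and these necessarily included the 41.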

How the data were processed

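Single-colour Agilent arrays of 16 whole-body samples were analysed, 8 per group, with groups and replicate numbers from the sample titles and slides from the file headers. Per the file headers, Agilent Feature Extraction 10.7.3.1 read the images, and its processed signal, a background-subtracted intensity on a linear scale, was deposited for each spot; the submitters' processing notes name version 9.1. The authors' deposited value table holds log2 values centred on each probe's median over the arrays, and the sources used here do not state their normalization. Each of its 16 columns correlated best with its own array, at 0.60 for cyfluthrin replicate 7 and 0.84 to 0.96 for the others. It served as an alternative.

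Processed intensity of non-control spots was scaled so that each array's 75th percentile equalled the mean of the 16 arrays, floored at 5 units and taken to log2. Spots with an outlier flag were dropped and spots of a probe averaged. No spot was saturated. Probes were taken as above background where Feature Extraction's well-above-background call held for a fraction of 0.5 or more of their spots. Slide effects and slide by treatment terms were fitted in R 4.3.3 with limma 3.58.1 (lmFit, eBayes, Benjamini-Hochberg) over probes above background on 4 or more arrays in cyfluthrin or in control samples, after a test on simulated data. Contigs named in the text are the 10 with the largest differences, the 5 widest gaps, the 3 brightest and 3 dimmest in controls, the 3 smallest differences, the 3 narrowest gaps and the 3 probes just outside, the 3 closest pairs and the 3 largest slide differences, and others where a count of 5 or fewer or a list is spelled out, chosen after their values were seen. The contigs and the lists were chosen with earlier results of these data known. Alternatives were other scalings, normexp background correction (offset 50) on median-pixel signals since no mean-pixel signal is in the files, other floors and filters, flagged spots kept, slide and replicate blocks, and left-out arrays. Precision is limited by having 8 arrays a group. Gene names, sequences and genome positions were not used here.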

Additional observations from a re-analysis of the deposited data

Results flagged for a closer look

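In 84 groups of 8 arrays (each of the 41 contigs in each group, and the average over the 41), the highest or lowest array was tested for standing apart from the rest of its group, and 7 did, 4 among cyfluthrin and 3 among control groups. Without selection, chance gives about 1 in 20 such groups. These values chose the contigs, however, and the rule bars a cyfluthrin value above, or a control value below, the other group's edge, so it leaves low cyfluthrin and high control values free. Neither the count nor the direction is therefore read against chance. The test was Dixon's, on the gap to the nearest array as a share of the range of the group. In contig_6647, cyfluthrin replicate 8 had a log2 signal of 7.29, while the next lowest cyfluthrin array had 9.04 and the highest 9.44 (gap share 0.815). In contig_3482, cyfluthrin replicate 2 was at 7.12 and the next at 7.87 (0.599). In contig_2783, cyfluthrin replicate 6 was at 6.09 and the next at 6.66 (0.549). The only high array among the cyfluthrin groups was replicate 3 in contig_8247, at 10.57 with the next at 9.93 (0.542), and it alone brought that contig within 0.010 of the lowest control array. Among control groups the highest array stood apart, the side the rule leaves free: replicate 4 in contig_4868 at 8.73 (0.653), replicate 2 in contig_7899 at 10.01 (0.631) and replicate 8 in contig_6565 at 10.36 (0.703). Contig_6647, contig_3482, contig_7899 and contig_6565 had 1 spot per array, so no duplicate spot can tell a spot fault from a sample difference there. The 7 values came from 7 different arrays, and the cause was not tested.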

How the results depend on the processing

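The 41 fully separated contigs became 19 under normexp correction with 75th-percentile scaling and 71 with slide means removed, of which 17 and 37 were among the 41. Other scalings gave 30 to 44, flagged spots kept gave 42, other floors and filters gave 41, and counting contigs over the arrays with a value, added after the data were seen, gave 45. Leaving out 1 array gave 42 to 53, a count that cannot shrink, since groups that do not overlap stay apart with fewer arrays. The median difference of −0.81 became −0.95 with arrays scaled on their median and −0.66 under normexp with 75th-percentile scaling. It was −0.86 to −0.75 when single arrays were left out. All 41 differences kept their sign under the 6 other normalizations. Left-out arrays, single slides and the replicate block cannot turn the sign of groups that do not overlap. Of 23 named contigs, 7 moved by over 1 SD under normexp with 75th-percentile scaling and 6 under normexp with quantile normalization, contig_2088 (−1.57 and −1.61) and contig_6339 (−1.40 and −1.39) by a fold of over 1.5 times. Median scaling gave a median over all 5849 contigs above background in controls of −0.12, against 0.018. The median correlation of 0.12 stayed within 0.090 and 0.15. The 2 slide effects (26.8% of all contigs tested) became 20 with median scaling (39.2% of all) and 7 with quantile normalization (29.1%). They became 10 when normexp preceded quantile normalization (28.2%) and 8 in the authors' value table (29.1%). With 1 array left out they became 1 to 5 (21.6% to 31.2% of all). They became 0 in limma when normexp preceded 75th-percentile scaling, where the share over all contigs was 4.95%. In that setting 11 had an unadjusted p under 0.05 (27% of all). Without the group term they were 0 (23.5% of all), and 0 at an unadjusted p under 0.05 (37.7% of all). Without that term, the group difference that chose the 41 counts as spread within a slide, so this 0 follows largely from the rule. The slide by treatment count among the 41 was 0 (limma) under every alternative run. At an unadjusted p under 0.05 it was 0 to 5 of the 41, against 1.85% to 7.08% of all contigs tested. Both normexp settings included the added offset of 50 units, which shrinks log2 differences of dim probes. The cause of these shifts, the share of that offset included, was not tested. Arrays of equal number shared slide and column. Same-number deviations correlated at −0.17 to 0.58, above 0.1 in 7 of 8 pairs, and 3 of 8 cyfluthrin arrays were closest to their own number. These values do not decide whether arrays of equal number form pairs, and the SEs given above are unpaired. The SD of same-number differences was 0.64 in contig_356 and highest in contig_6339, at 0.82. With the replicate number as a block the median difference was −0.81, which a balanced block cannot change, so this value does not bear on the pairing. Of 8507 contigs, 5673 were above background on all 16 arrays, which limits what can be compared among dim contigs.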
